A study of Mus musculus with 10 samples.

Results

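The citric acid cycle and fatty acid oxidation were followed in adipose tissue through 37 genes. Each was taken for its textbook function, and the brightest probe set that names a gene alone stood for it. There were 14 genes of the cycle and of pyruvate dehydrogenase, 21 of beta-oxidation and 2 regulators, Pdk4 and Ppara. Of these, 35 were measured among the 17097 genes tested. Hadha and Etfb had no probe set that names them alone and were not analysed here.

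RNA came from epididymal white adipose tissue, a visceral depot beside the testis. All mice were males of C57/Bl6 background. They entered the study at 8 to 12 weeks of age and ate a diet with 45 energy% of fat for 16 weeks, so that every genotype, wild type included, was on the fat-rich diet. There were 3 ASC-/- arrays, 3 Casp1-/- arrays and 4 wild-type (WT) arrays, from separate mice per the labels. ASC, encoded by Pycard, is the adaptor that links inflammasome sensors to caspase-1, the protease encoded by Casp1. One label field writes the first genotype as ASC1 null, while the sample titles write ASC-/-. The labels call both alleles null and name no promoter, Cre or tissue restriction, and they do not say whether WT mice were littermates of the null mice. Signals are log2 values from Affymetrix arrays made with RMA, so a difference of 1 is a doubling, and levels of different genes were not set against each other.

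In the citric acid cycle, acetyl-CoA condenses with oxaloacetate to citrate, and the ring of reactions that follows releases carbon dioxide and hands electrons to the respiratory chain. Acetyl-CoA enters from pyruvate through the pyruvate dehydrogenase complex, which kinases such as Pdk4 switch off by phosphorylation, or from fatty acids through beta-oxidation. For beta-oxidation, long-chain fatty acids pass into the mitochondrion as carnitine esters and are then shortened in a repeating cycle of dehydrogenation, hydration, dehydrogenation and thiolysis. White adipocytes mainly store and release fat, while brown and beige adipocytes burn it. Ppara encodes a nuclear receptor that drives genes of fatty acid oxidation, and Pdk4 is among its known targets.

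The targeted genes were low where the titles name a null allele. Pycard had log2 signals of 3.20, 3.71 and 3.30 on ASC-/- arrays, against 9.10 to 10.57 on WT arrays. Casp1 had 4.86, 4.98 and 4.69 on Casp1-/- arrays, against 8.71 to 9.99 on WT arrays. Control probe sets meant to bind nothing had medians of 2.91 to 3.15 per array, and the highest single one reached 5.01. Arrays correlated at 0.964 to 0.995 with each other.

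The arrays fall into sets that the labels do not mention. Poly-A control transcripts, which are added to the RNA before labelling, averaged 7.51 to 8.07 on the 3 Casp1-/- arrays and 7.80 on WT replicate 1, but 5.76 to 6.50 on the 3 ASC-/- arrays and the other 3 WT arrays. These are called the high and the low spike-in set, and what they stand for was not tested. Each comparison is therefore given also with the set as a block, which puts the Casp1-/- arrays against WT replicate 1 alone and the ASC-/- arrays against WT replicates 2, 3 and 4. With 1 WT array in the high set, the spread of WT within that set could not be measured. A Casp1-/- call lost with the block can therefore not be told from too few arrays. ASC-/- and Casp1-/- arrays share no set, so between them genotype and set cannot be told apart except through the WT arrays.

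Cell markers differed between arrays as well. Averaged over 12 macrophage markers, the signal was 10.70, 10.42 and 10.30 on ASC-/- arrays and 9.17, 8.97 and 9.23 on Casp1-/- arrays, against 9.69, 10.11, 11.07 and 10.68 on WT arrays. The 8 measured white adipocyte markers of 12 averaged 10.91, 11.16 and 11.23 on ASC-/- arrays and 11.57, 11.56 and 11.62 on Casp1-/- arrays, against 11.44, 11.45, 10.37 and 11.08 on WT arrays. WT replicate 3 thus had the highest macrophage and the lowest adipocyte level of all 10 arrays, and Casp1-/- arrays had the lowest macrophage levels. The 6 measured brown and beige markers of 7 averaged 5.33 to 6.45 on 9 arrays and 7.58 on WT replicate 4. On that array Ucp1, the uncoupling protein of brown fat, had 9.30, against at most 4.74 elsewhere. The 5 measured epididymis markers of 9 averaged 4.84 to 6.13 on ASC-/- replicate 1, Casp1-/- replicate 2 and WT replicates 1 and 2, and 3.50 to 3.96 on the other 6 arrays. Most of that gap lay in Spink8, with 10.05 to 12.10 on those 4 arrays and 3.78 to 4.94 elsewhere, and in Adam7 on some of them, while Lcn5, Lcn8 and Defb21 had 3.05 to 3.80 on every array. Skeletal muscle markers, 7 of 7 measured, averaged 4.09 to 4.42 on 9 arrays and 4.88 on WT replicate 1, where Ckm, the muscle creatine kinase, had 6.57. Acta1, skeletal muscle actin, had 6.97 to 9.46 over the 10 arrays, with the highest value on WT replicate 1. That array is the only WT array of the high spike-in set, so each Casp1-/- difference from WT with the block rests on it. In whole tissue, fewer cells of a type and less RNA per cell cannot be told apart.

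The genes at the pyruvate branch point follow here, Pdk4 and the dehydrogenase genes Pdha1 and Pdhb, and their start regions are shown so that the DNA before each gene can be read beside its values. Each sequence is the 250 bases before the annotated start, 5′ to 3′ on the gene's own strand, from RefSeq on GRCm38.p6. Capitals mark CCAAT boxes, read as CCAAT or its complement ATTGG. Pdk4 lies at chr6:5496279-5496528, Pdha1 at chrX:160138431-160138680 and Pdhb at chr14:8172993-8173242, all on the minus strand.
Pdk4: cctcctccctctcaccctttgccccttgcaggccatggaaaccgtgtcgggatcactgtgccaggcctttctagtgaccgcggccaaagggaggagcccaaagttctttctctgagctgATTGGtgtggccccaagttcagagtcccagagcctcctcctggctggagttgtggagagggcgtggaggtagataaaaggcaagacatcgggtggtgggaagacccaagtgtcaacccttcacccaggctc
Pdha1: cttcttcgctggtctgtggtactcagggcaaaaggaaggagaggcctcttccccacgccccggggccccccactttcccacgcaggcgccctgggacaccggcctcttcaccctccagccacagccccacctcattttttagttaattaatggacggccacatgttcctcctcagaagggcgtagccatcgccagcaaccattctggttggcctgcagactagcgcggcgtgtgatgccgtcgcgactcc
Pdhb: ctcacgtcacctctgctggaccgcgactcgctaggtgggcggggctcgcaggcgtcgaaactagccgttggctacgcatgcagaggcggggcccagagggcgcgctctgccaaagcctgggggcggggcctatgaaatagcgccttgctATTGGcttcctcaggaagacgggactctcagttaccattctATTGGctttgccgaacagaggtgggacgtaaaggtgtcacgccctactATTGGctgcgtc
Pdk4 had 1 such box, 131 to 127 bases before the start, and Pdhb had 3, the nearest 12 to 8 bases before it. Pdha1 had none. Motifs were counted over a longer window, which also takes in bases after the start. Over the 33 members with such a window, 15 held CCAAT on either strand, against 41.1% of the 27025 genes with one. The estrogen-related receptor element TNAAGGTCA was in 0 of 33, against 1.43% of genes, and the direct repeat bound by PPAR with RXR in 0 of 33, against 0.451%. The half-site AGGTCA, which lies inside the first of these elements and can lie inside the repeat, was in 8 of 33, against 18.1%. In Idh3g it lay 14 to 19 bases after the start, and in Ogdh it ran across the start. The forkhead core GTAAACA was in 0 of 33, against 4.05%. The half-site, the forkhead core and the CCAAT box were added after the first pair of motifs matched no member. These counts describe the letters of the windows and no binding.

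Casp1-/- arrays were set against WT arrays to ask what loss of caspase-1 goes with in the fat of mice on this diet. Pdk4, the kinase that inactivates pyruvate dehydrogenase, fell 4.02-fold. Genes of the dehydrogenase it acts on, Pdha1 and Pdhb, had higher signals on all 3 Casp1-/- arrays than on any WT array but did not pass the threshold. The rest of the cycle and of beta-oxidation had differences of both signs, none of which passed. With 1 of 35 members past an adjusted p of 0.05, the list had a share of 2.86%, against 8.17% of all genes tested, of which 4.31% were higher and 3.86% lower.

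The Pdk4 signal was 7.79, 7.32 and 7.85 on Casp1-/- arrays, against 9.84, 9.52, 8.87 and 10.41 on WT arrays. Every Casp1-/- array lay below every WT array, with a gap of more than 1 log2 unit between the groups. The fitted difference was -2.01 ± 0.32 (SE, 95% interval -2.73 to -1.29, limma adjusted p = 0.0125, n = 3 and 4). Against WT replicate 1 alone, in the same spike-in set, it was -2.19 and did not pass, in a fit with 1 WT array in that set. Without Casp1-/- replicate 2, the lowest array, it was -1.84 with an adjusted p of 0.066. Over all alternatives tried, the difference ran from -2.29 to -1.76 and was negative each time. Pdk4 has 1 probe set on the array, so no second one could be compared.

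**Figure D1:**
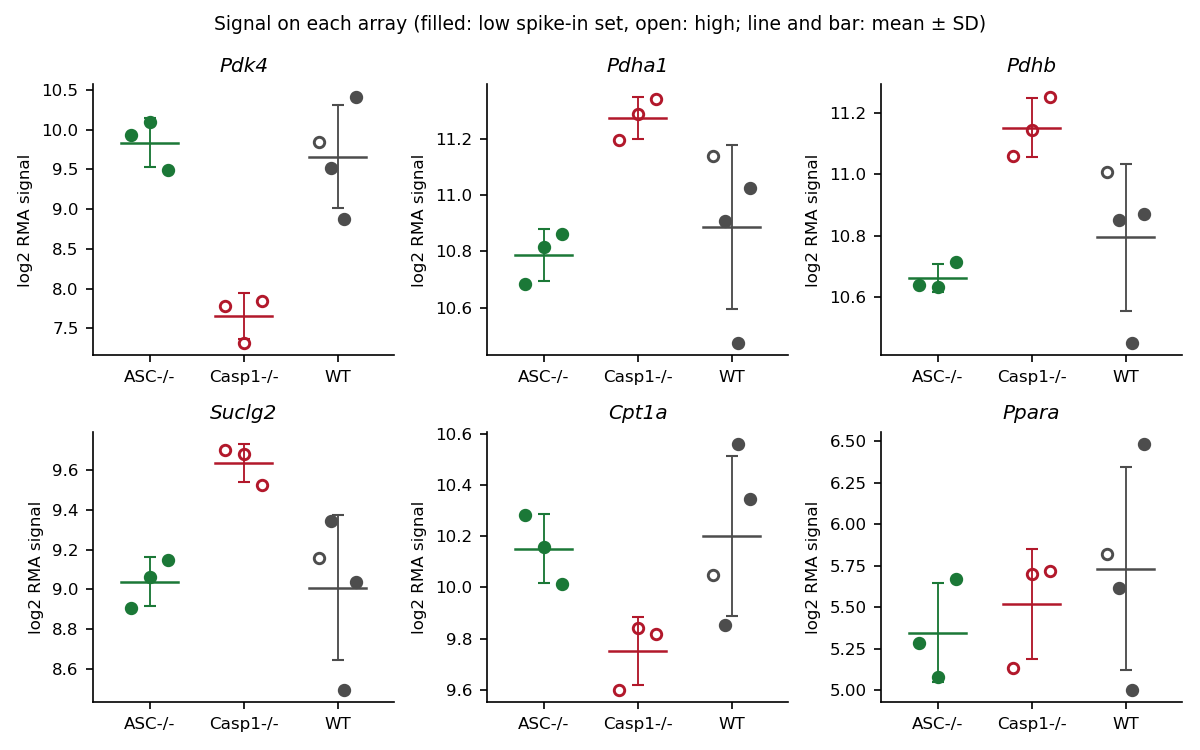
Log2 RMA signal of 6 members on each of the 10 arrays, by genotype; lines and bars are mean ± SD, filled points belong to the low spike-in set and open points to the high one. The 3 Casp1-/- arrays lie between 7.32 and 7.85 for Pdk4 and above all WT arrays for Pdha1, Pdhb and Suclg2.

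Pdha1, the catalytic alpha subunit of pyruvate dehydrogenase, had 11.20, 11.29 and 11.34 on Casp1-/- arrays, against 11.14, 10.91, 10.47 and 11.03 on WT arrays. Its difference was 0.39 ± 0.14 (SE, adjusted p = 0.121). Pdhb, the beta subunit of the same enzyme, had 11.06, 11.14 and 11.25 on Casp1-/- arrays, against 11.01, 10.85, 10.45 and 10.87 on WT arrays, a difference of 0.36 ± 0.12 (SE, adjusted p = 0.103). For both subunits the nearest WT array was replicate 1, the one of the same spike-in set, and against it alone the differences were 0.14 and 0.15. Without that array both passed, Pdha1 at 0.48 (adjusted p = 0.0478) and Pdhb at 0.43 (adjusted p = 0.0434), in a fit where 17.7% of all genes passed. Dlat, the acetyltransferase core of the complex, did not share this order. It averaged 9.75 ± 0.058 on Casp1-/- arrays and 9.90 ± 0.32 on WT arrays (SD, n = 3 and 4), and the ranges overlapped.

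Within the cycle, Suclg2 stood closest to the threshold. It encodes the GTP-specific beta subunit of succinyl-CoA ligase and had 9.70, 9.68 and 9.53 on Casp1-/- arrays, against 9.16, 9.35, 8.49 and 9.04 on WT arrays. The groups did not overlap, and the difference was 0.63 ± 0.18 (SE, 1.54-fold, limma adjusted p = 0.0584). It passed without WT replicate 1 (0.68, adjusted p = 0.0442), without WT replicate 2 (0.74, adjusted p = 0.0378) and without WT replicate 3 (0.45, adjusted p = 0.0443), where 17.7%, 8.24% and 5.98% of all genes passed in that order. Against WT replicate 1 alone the difference was 0.48 with an adjusted p of 0.555. Sucla2, the ADP-forming counterpart of Suclg2, had a difference of -0.071 with overlapping groups. Cs, citrate synthase, which opens the cycle, had 11.74, 11.83 and 11.88 on Casp1-/- arrays, against 11.91, 11.65, 11.38 and 11.78 on WT arrays. These overlap, and the difference was 0.13 ± 0.13 (SE, adjusted p = 0.536). Of the 14 genes of the cycle and pyruvate dehydrogenase, 11 had positive differences, with a median of 0.15, against a median of 0.041 over all genes. Against WT replicate 1 alone the median was -0.029, and 7 of 14 differences were positive. Without WT replicate 3 the median was 0.050.

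None of the carnitine shuttle genes passed, with differences of -0.45 for Cpt1a, 0.19 for Cpt2 and -0.048 for Slc25a20. Cpt1a, the outer-membrane carnitine palmitoyltransferase that makes the carnitine esters, had 9.60, 9.84 and 9.82 on Casp1-/- arrays, against 10.05, 9.85, 10.56 and 10.34 on WT arrays. The highest Casp1-/- array and the lowest WT array almost touched, and the difference was -0.45 ± 0.16 (SE, adjusted p = 0.112). It passed without WT replicate 2 (-0.56, adjusted p = 0.0486), and against WT replicate 1 alone it was -0.29 (adjusted p = 0.724). Echs1, the short-chain enoyl-CoA hydratase, had 10.74, 10.80 and 10.96 on Casp1-/- arrays, against 10.61, 10.34, 9.996 and 10.70 on WT arrays. Its groups did not overlap, and the difference was 0.42 ± 0.16 (SE, adjusted p = 0.133). Against WT replicate 1 alone it was 0.22 (adjusted p = 0.806).

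The other steps of fatty acid oxidation had no member past the threshold. The 4 acyl-CoA dehydrogenases, which catalyse the first oxidation according to chain length, had differences of -0.19 for Acadl, -0.014 for Acadm, 0.36 for Acads and 0.21 for Acadvl. Acads did not overlap between the groups. Eci1, Eci2 and Decr1, auxiliary enzymes for unsaturated fatty acids, had differences of 0.16 to 0.36, all with overlap. Ehhadh, a peroxisomal bifunctional enzyme, had 0.60 against all WT arrays and -0.44 against WT replicate 1 alone. Over the 19 genes of beta-oxidation 12 differences were positive and the median was 0.13. The median was -0.10 within the spike-in set and -0.065 without WT replicate 3.

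Ppara gave low signals, 5.13, 5.70 and 5.72 on Casp1-/- arrays, against 5.82, 5.62, 5.0004 and 6.48 on WT arrays. The lowest of these lie at the level of the highest background probe set, and the difference was -0.21 ± 0.31 (SE, adjusted p = 0.707). Over all 35 members, 6 lay above all WT arrays on every Casp1-/- array (17.1%) and 2 below (5.71%), against 15.1% and 9.6% of all genes, or 22.9% of members against 24.7% of all genes in either direction. At an unadjusted p under 0.05 the list had 7 members, or 20%, against 27.6% of all genes. Within the spike-in set 0 of 35 members passed, against 0.702% of all genes, and 24 of 35 kept their sign. Of all 17097 genes tested, 12604 kept their sign. The count of members past the threshold was 0 without Casp1-/- replicate 2, 4 without WT replicate 1, 3 without WT replicate 2 and 2 without WT replicate 3. These are 0%, 11.4%, 8.57% and 5.71% of members, against 0.374%, 17.7%, 8.24% and 5.98% of all genes in the same fits.

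**Figure D2:**
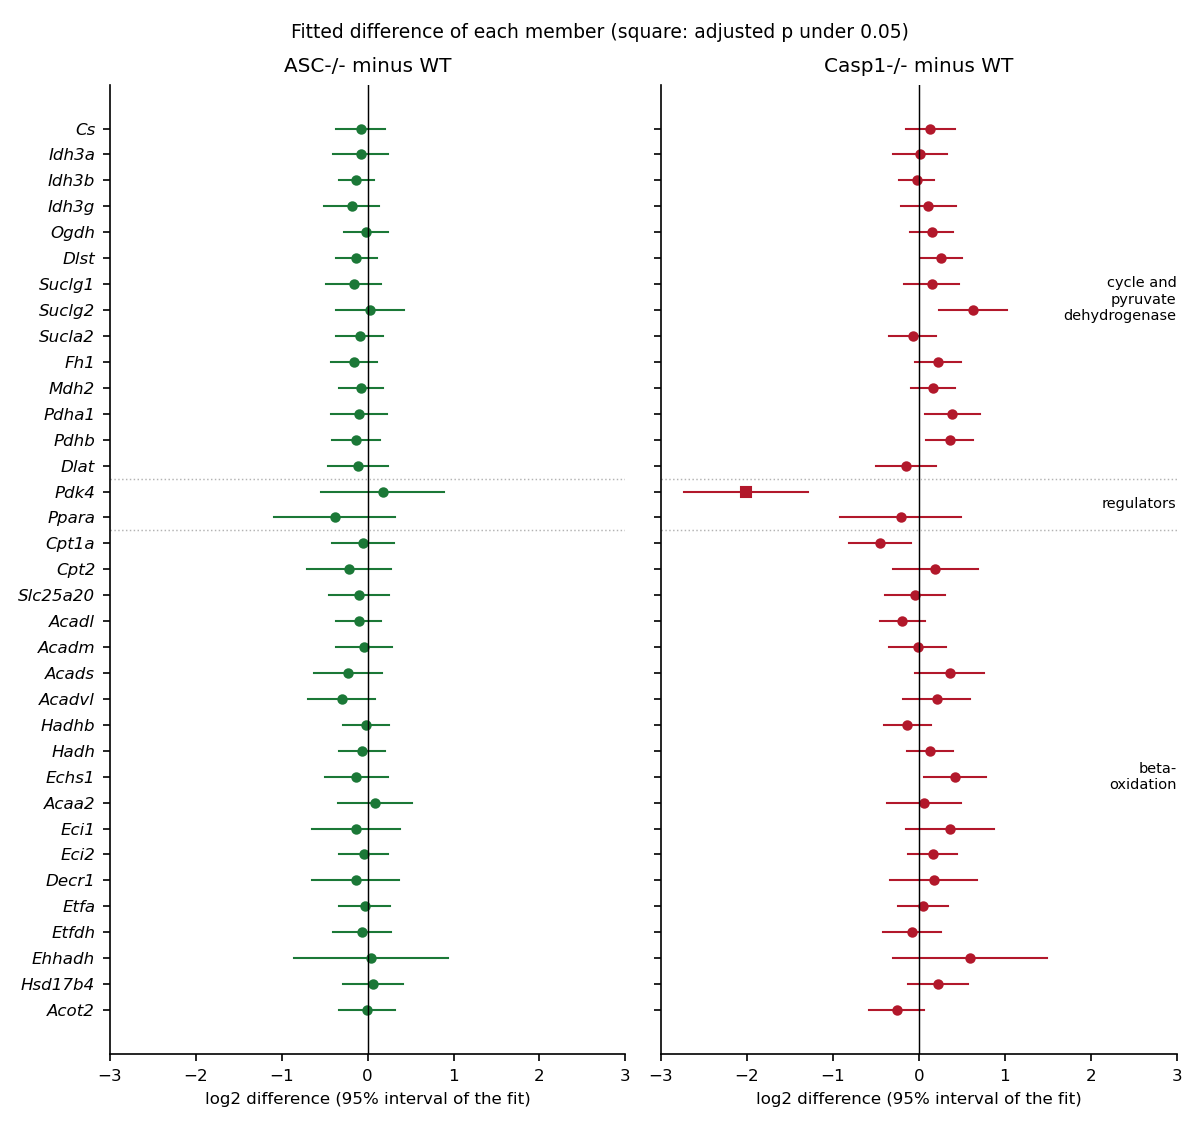
Fitted log2 difference from WT of the 35 members measured, with 95% intervals, ASC-/- on the left and Casp1-/- on the right; a square marks an adjusted p under 0.05. Pdk4 at -2.01 in Casp1-/- is the single square, and the other Casp1-/- differences lie between -0.45 and 0.63; those of ASC-/- lie between -0.38 and 0.17.

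**Figure D3:**
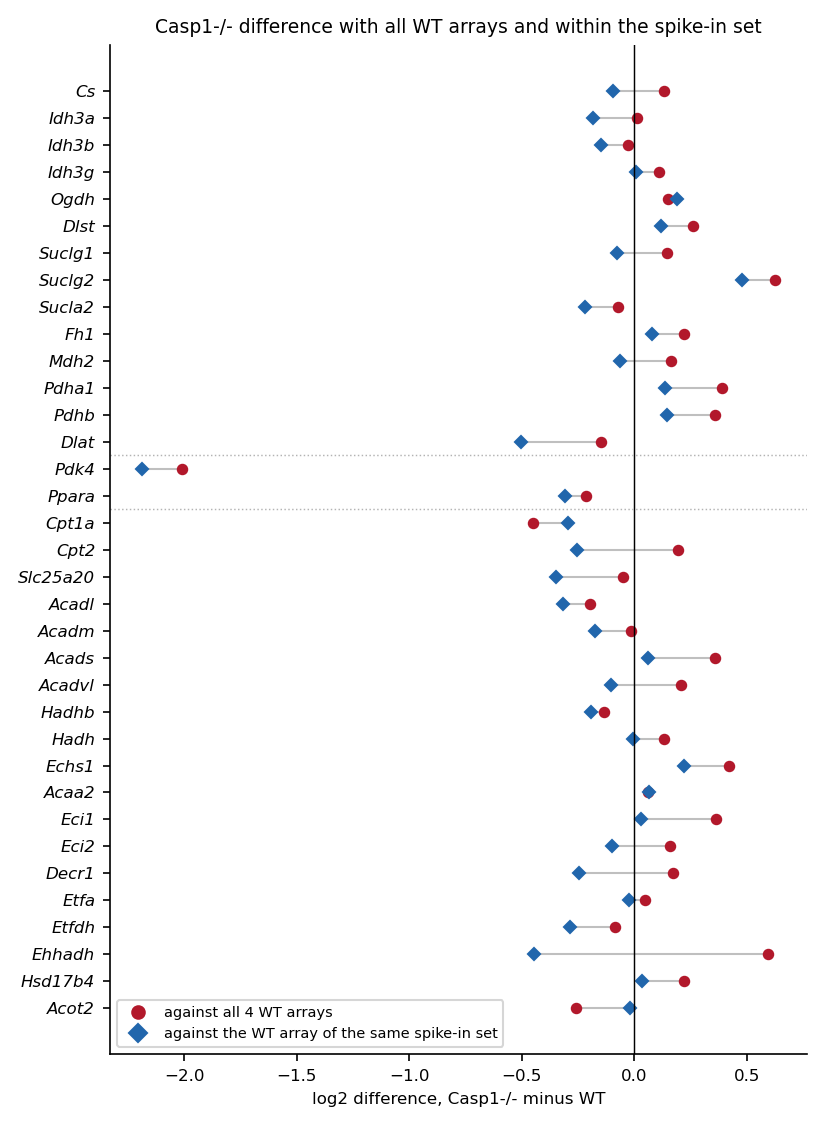
Log2 difference of each member between Casp1-/- and WT, against all 4 WT arrays (circles) and against the WT array of the same spike-in set (diamonds). Pdk4 is at -2.01 and -2.19, while 11 of the 35 members change sign. Of all 17097 genes tested, 12604 keep their sign.

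More genes of the same pathways were read from a second list of 86, of which 73 were measured. In Casp1-/- tissue 7 of these rose and 0 fell, a share of 9.59%. Of all genes 8.17% passed in either direction and 4.31% were higher. The median difference of the list was 0.22. Dhtkd1, a relative of Ogdh that acts in lysine breakdown, had 7.26, 7.35 and 7.21 on Casp1-/- arrays, against 5.94, 5.59, 5.03 and 5.98 on WT arrays. It rose 3.11-fold (1.64 ± 0.23 SE, adjusted p = 0.00985). Pdk3, another kinase of pyruvate dehydrogenase, had 7.23, 7.49 and 7.18 on Casp1-/- arrays, against 6.33, 6.59, 6.76 and 6.22 on WT arrays. It rose by 0.83 ± 0.14 (SE, adjusted p = 0.0144), opposite in sign to Pdk4.

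The kinases Pdk1 and Pdk2, looked at after the values of Pdk3 and Pdk4 were seen, had differences of -0.30 and 0.098 with overlap. Pparg, the nuclear receptor that directs adipocyte differentiation, had 11.14, 11.20 and 11.48 on Casp1-/- arrays, against 10.32, 10.50, 10.06 and 10.70 on WT arrays (0.88 ± 0.18 SE, adjusted p = 0.0234). Acaca, acetyl-CoA carboxylase, which makes malonyl-CoA for fatty acid synthesis, had 10.12, 10.24 and 10.33 on Casp1-/- arrays, against 9.46, 9.32, 8.39 and 9.13 on WT arrays (1.15 ± 0.23 SE, adjusted p = 0.0234). For Dhtkd1, Pdk3, Pparg and Acaca the genotypes did not overlap. Neither Pparg nor Acaca encodes an enzyme of oxidation. Rxra, Hsd17b10 and Pdp2 also rose, by 0.81, 0.51 and 0.82. Within the spike-in set 0 of the 73 passed. There the differences were 1.33 for Dhtkd1, 0.97 for Pdk3, 0.95 for Pparg and 0.77 for Acaca, with adjusted p-values of 0.14, 0.0955, 0.207 and 0.401. Without Casp1-/- replicate 2 the count was 0, while 0.374% of all genes passed. Without replicate 1 or replicate 3 of that genotype it was 2 (2.74%), against 1.8% and 1.59% of all genes. It was 4 without WT replicate 4 (5.48%, against 2.02% of all genes) and 19 without WT replicate 1 (26%, against 17.7%).

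Cell markers differed in the same comparison. All 12 macrophage markers were lower on Casp1-/- arrays than on WT arrays by the fitted difference, with a median of -1.38, and 7 of them passed. Of the 8 white adipocyte markers 6 were higher, with a median of 0.46, and 0 passed, with 4 at an unadjusted p under 0.05. All 5 endothelial markers (median 0.62, 4 at an unadjusted p under 0.05) and all 4 mesothelial markers (median 0.88, 1 at an unadjusted p under 0.05) were higher, and all 6 brown and beige markers were lower (median -0.60). None of these 15 passed against all 4 WT arrays. High values on single WT arrays entered the brown and beige differences. Ucp1 had 9.30 and Cidea 9.02 on WT replicate 4, and Dio2 had 5.18 and Elovl3 5.77 on WT replicate 1. On the other arrays Ucp1, Dio2 and Elovl3 had 3.50 to 4.84, below the highest background probe set at 5.01. Against WT replicate 1 alone the macrophage median was -0.56, with 10 of 12 lower, and the white adipocyte median was 0.18. The endothelial, mesothelial and brown and beige medians were then 0.39, 1.14 and -0.88. The part of the cell markers in the differences of the oxidation genes was not tested.

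**Figure D4:**
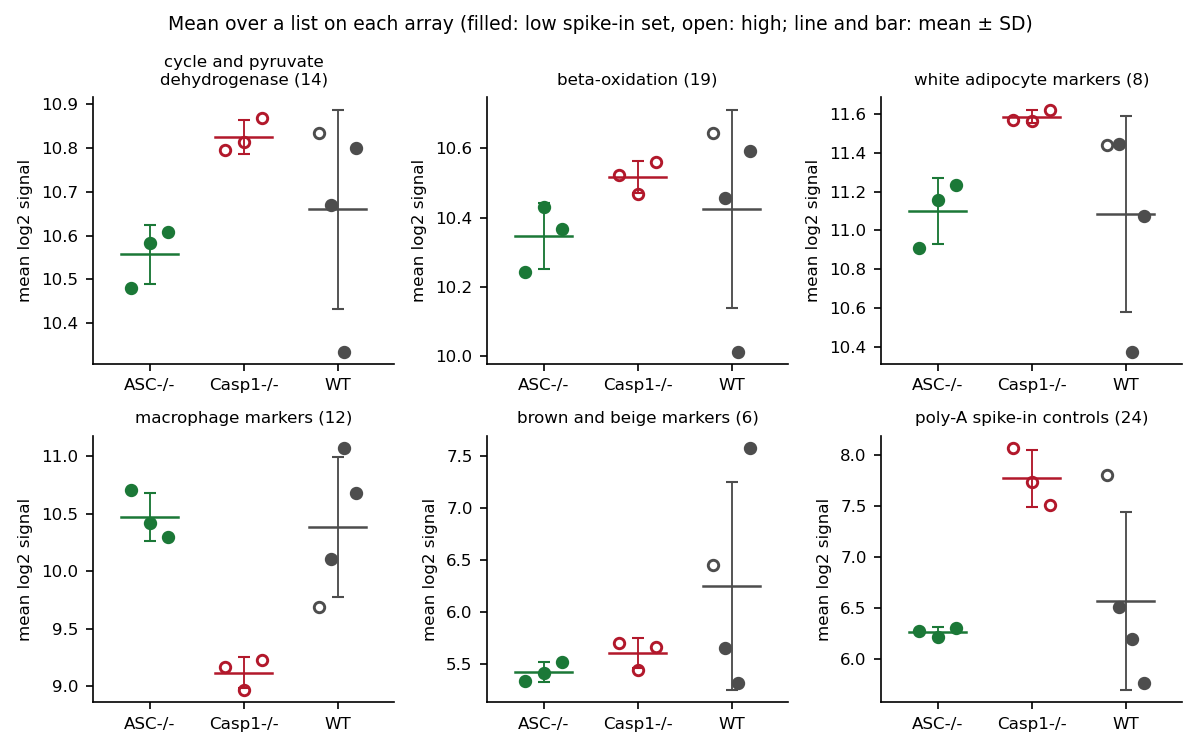
Mean log2 signal on each array of the 14 cycle and pyruvate dehydrogenase genes, the 19 beta-oxidation genes, 3 marker lists and the 24 poly-A spike-in control probe sets; lines and bars are mean ± SD, filled points are the low spike-in set and open points the high one. WT replicate 3 is lowest for both oxidation lists, at 10.33 and 10.01, and for white adipocyte markers, at 10.37, and highest for macrophage markers, at 11.07.

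ASC-/- arrays were set against WT arrays to ask the same of the adaptor. None of the 35 members passed, with 0 of 35 also at an unadjusted p under 0.05 by limma, against 0.0351% and 2% of all genes. No member separated the groups, against 3.19% of all genes. Differences were small and mostly negative. In the cycle and pyruvate dehydrogenase 13 of 14 lay below 0, with a median of -0.11, and in beta-oxidation 16 of 19, with a median of -0.063, against a median of 0.0050 over all genes. Against the WT arrays of the same spike-in set the medians were -0.038 and -0.011, and 0 of 35 members passed, against 0.0292% of all genes. Leaving out WT replicate 1 gives the same medians by construction, -0.038 and -0.011, since the block already sets that array aside. Without WT replicate 3 the medians were -0.22 and -0.19. Without the 4 arrays with high epididymis markers, left out after the data were seen, the medians were 0.051 and 0.10. That fit set ASC-/- replicates 2 and 3 against WT replicates 3 and 4. WT replicate 3 was the lowest of all 10 arrays for 30 of 35 members. The members' 95% intervals reached a median of 0.32 log2 units to either side, so differences of that size could not be told from 0.

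Acadvl, the very-long-chain acyl-CoA dehydrogenase, had the smallest unadjusted p. It had 9.82, 9.91 and 9.97 on ASC-/- arrays, against 10.51, 10.23, 9.67 and 10.39 on WT arrays, a difference of -0.30 ± 0.17 (SE, adjusted p = 1.00). Only WT replicate 3 lay below the ASC-/- arrays. The same held for Acads, the short-chain enzyme, with 8.53, 8.73 and 8.77 on ASC-/- arrays, against 9.20, 9.13, 8.39 and 8.91 on WT arrays and a difference of -0.23 ± 0.18 (SE).

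In the cycle, the subunits of isocitrate dehydrogenase Idh3g and Idh3b and the fumarase gene Fh1 followed. Idh3g had 10.81, 10.83 and 10.95 on ASC-/- arrays, against 11.15, 10.98, 10.69 and 11.38 on WT arrays (-0.19 ± 0.14 SE). Idh3b had 10.94, 10.84 and 10.87 on ASC-/- arrays, against 11.13, 10.83, 10.95 and 11.13 on WT arrays (-0.13 ± 0.092 SE). Fh1 had 10.55, 10.72 and 10.75 on ASC-/- arrays, against 10.98, 10.85, 10.53 and 10.98 on WT arrays (-0.16 ± 0.12 SE). For each of the 3 genes the ASC-/- arrays lay inside the WT range. Cs had 11.45, 11.62 and 11.74 on ASC-/- arrays against 11.38 to 11.91 on WT arrays, and its difference was -0.080 ± 0.13 (SE).

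Pdk4 showed no shift in ASC-/- tissue that could be told from the spread. It had 9.93, 10.09 and 9.49 on ASC-/- arrays, all inside the WT range of 8.87 to 10.41, and a difference of 0.17 ± 0.32 (SE, 95% interval -0.54 to 0.89). Cpt1a had 10.28, 10.16 and 10.01 on ASC-/- arrays, inside the WT range of 9.85 to 10.56 (-0.049 ± 0.16 SE). Ppara had 5.29, 5.08 and 5.67 on ASC-/- arrays, against 5.0004 to 6.48 on WT arrays (-0.38 ± 0.31 SE). Of the second list, 0 of 73 passed, and 1 separated the groups, a share of 1.37% against 3.19% of all genes. This was Ppargc1b, a coactivator of oxidation genes, named after its values were seen. It had 7.18, 7.16 and 7.14 on ASC-/- arrays, against 7.82, 7.63, 7.40 and 7.68 on WT arrays (-0.47 ± 0.14 SE, unadjusted p = 0.00624, limma adjusted p = 1.00). On the ASC-/- arrays 9 of 12 macrophage markers were higher and 4 of 8 white adipocyte markers were lower, and 0 of either passed. Against the WT arrays of the same spike-in set only 2 of 12 macrophage markers were higher (median -0.076). All 8 white adipocyte markers were higher there (median 0.12). All 4 T cell markers were lower on every ASC-/- array than on any WT array, with a median of -0.60 and 4 at an unadjusted p under 0.05. Their signals were low, 3.58 to 5.78 over the 10 arrays, near the highest background probe set at 5.01. All 6 brown and beige markers were lower by the fitted difference, with a median of -0.57, and 0 of either list passed. The high values on WT replicates 1 and 4 named above entered these differences too. Ucp1, Dio2 and Elovl3 had 3.50 to 4.84 on ASC-/- arrays, below the highest background probe set. The part of these markers in the differences was not tested.

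Setting ASC-/- against Casp1-/- arrays shows the null genotypes side by side. Pdk4 was again the one member past the threshold, 4.54-fold higher in ASC-/- tissue. The share of members past the threshold was 2.86%, against 7.39% of all genes, of which 3.85% were higher and 3.54% lower. The difference was 2.18 ± 0.34 (SE, 95% interval 1.41 to 2.95, limma adjusted p = 0.0123), and the lowest ASC-/- array, 9.49, lay above the highest Casp1-/- array, 7.85. The comparison shares its Casp1-/- arrays with the one above. It was 2.42 with an adjusted p of 0.207 with the spike-in set as a block. Without ASC-/- replicate 1 (2.14, adjusted p = 0.06), ASC-/- replicate 2 (2.06, adjusted p = 0.0564) or Casp1-/- replicate 2 (2.02, adjusted p = 0.0598) it did not pass.

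Most enzymes of the cycle had lower signals on ASC-/- arrays than on Casp1-/- arrays, and none of them passed the threshold. In the cycle and pyruvate dehydrogenase 13 of 14 differences were negative, with a median of -0.27, and 10 of 14 did not overlap. In beta-oxidation 13 of 19 were negative, with a median of -0.16. Over all members 19 of 35, or 54.3%, lay wholly below the Casp1-/- arrays, and 3 of 35, or 8.57%, wholly above, against 23.1% and 17.3% of all genes, and 62.9% against 40.4% in either direction. At an unadjusted p under 0.05 the members had 28.6%, against 26% of all genes. With the spike-in set as a block the medians were -0.080 and 0.14, so that of beta-oxidation changed its sign, and 0 of 35 members passed, against 0.368% of all genes.

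The arrays of these genotypes also differed in a sign of RNA quality. The actin signal at the 3′ end minus that at the 5′ end was 0.59, 0.54 and 0.67 on ASC-/- arrays and 0.98, 0.82 and 0.84 on Casp1-/- arrays, without overlap, and 1.05, 0.91, 0.53 and 0.46 on WT arrays. With it as a covariate the medians were -0.21 for the cycle and 6.63e-05 for beta-oxidation, and 0 of 35 members passed, against 1.35% of all genes. Without ASC-/- replicate 1 the beta-oxidation median was -0.084. The part of RNA quality in these results was not tested further.

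Pdhb came nearest to the threshold after Pdk4. It had 10.64, 10.63 and 10.71 on ASC-/- arrays, against 11.06, 11.14 and 11.25 on Casp1-/- arrays, a difference of -0.49 ± 0.13 (SE, adjusted p = 0.0549). Another probe set of Pdhb had -0.84, with an adjusted p of 0.0325 where all probe sets were tested. Pdha1 had 10.68, 10.82 and 10.86 on ASC-/- arrays, against 11.20, 11.29 and 11.34 on Casp1-/- arrays (-0.49 ± 0.15 SE, adjusted p = 0.0847). The groups of both subunits lay well apart. With the spike-in set as a block the differences were -0.21 for Pdhb and -0.15 for Pdha1, with adjusted p-values of 0.865 and 0.935.

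Dlst, the succinyltransferase of oxoglutarate dehydrogenase, had 9.36, 9.33 and 9.28 on ASC-/- arrays, against 9.71, 9.66 and 9.78 on Casp1-/- arrays (-0.39 ± 0.11 SE, adjusted p = 0.0673). Suclg2 had 8.91, 9.06 and 9.15 on ASC-/- arrays, against 9.70, 9.68 and 9.53 on Casp1-/- arrays (-0.60 ± 0.19 SE, adjusted p = 0.0858). Echs1 had 10.12, 10.42 and 10.30 on ASC-/- arrays, against 10.74, 10.80 and 10.96 on Casp1-/- arrays (-0.55 ± 0.17 SE, adjusted p = 0.0839). None of these overlapped between the genotypes. With the spike-in set as a block the differences were -0.20, -0.40 and -0.29, with adjusted p-values of 0.852, 0.831 and 0.867. Without WT replicate 3, which enters only through the shared estimate of the spread, 10 members passed, Pdhb, Pdha1, Dlst, Suclg2 and Echs1 among them. That is 28.6% of members, against 15.3% of all genes in the same fit.

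Other genes kept closer together. Cs had a difference of -0.21 ± 0.13 (SE, adjusted p = 0.348), and its groups touched without overlap, at 11.74 each. Ppara had -0.17 ± 0.33 (SE) with overlap. Cpt1a lay higher on every ASC-/- array, with 10.01 to 10.28 against 9.60 to 9.84 on Casp1-/- arrays (0.40 ± 0.17 SE, adjusted p = 0.18).

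Of the second list 9 of 73 were lower in ASC-/- tissue and 0 higher, a share of 12.3%. Of all genes 7.39% passed in either direction and 3.54% were lower. Dhtkd1 was lower by a difference of -1.42 ± 0.24 (SE, adjusted p = 0.0148), with 5.51 to 6.12 on ASC-/- arrays against 7.21 to 7.35 on Casp1-/- arrays. Hsd17b10, a mitochondrial dehydrogenase of branched-chain breakdown, had -0.58 ± 0.11 (SE, adjusted p = 0.0223), Acaca -1.20 ± 0.25 (SE, adjusted p = 0.0261) and Rxra, the partner receptor of PPARs, -0.85 ± 0.18 (SE, adjusted p = 0.0262). With the spike-in set as a block 0 of the 73 passed. The count without 1 array was 0 to 4 where a null array was left out (0% to 5.48%, against 0.275% to 3.88% of all genes). It was 23 without WT replicate 3 (31.5%, against 15.3% of all genes). All 12 macrophage markers were higher on ASC-/- arrays by the fitted difference, with a median of 1.43 and 6 past the threshold. White adipocyte markers were lower for 6 of 8 (median -0.41, 0 passed, 4 at an unadjusted p under 0.05), and all 4 T cell markers lay below every Casp1-/- array (median -0.47, 1 passed). The 5 endothelial and 4 mesothelial markers were all lower, with medians of -0.36 and -0.83, and 0 passed. With the spike-in set as a block the macrophage median was 0.34, with 10 of 12 higher, and the white adipocyte median was -0.056. The endothelial and mesothelial medians were then -0.21 and -0.98. That of the T cell markers, whose signals lay near background, was -0.75. The part of the markers in these results was not tested.

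The WT arrays differed among themselves more than the null arrays did. The range over the arrays of a genotype had a median of 0.20 over the members in ASC-/- and 0.16 in Casp1-/-, against 0.65 in WT. WT has 1 array more than either null genotype, which by itself widens a range. WT arrays also lie in both spike-in sets, while each null genotype lies in a single set. The spread between WT mice and that between sets cannot be told apart here. In WT the range of a member ran from 0.30 to 2.19, the highest for Ehhadh, with 8.89, 8.04, 6.71 and 7.77 on the 4 arrays. WT replicate 3 was the lowest of all 10 arrays for 30 of 35 members, and WT replicate 4 the highest for 12. WT replicate 3 was the highest of all 10 for 2 members.

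The cycle and beta-oxidation moved nearly in parallel over the arrays. The 14 cycle and pyruvate dehydrogenase genes averaged 10.48, 10.58 and 10.61 on ASC-/- arrays and 10.79, 10.81 and 10.87 on Casp1-/- arrays, against 10.84, 10.67, 10.33 and 10.80 on WT arrays. The 19 beta-oxidation genes averaged 10.24, 10.43 and 10.37 on ASC-/- arrays and 10.52, 10.47 and 10.56 on Casp1-/- arrays, against 10.64, 10.46, 10.01 and 10.59 on WT arrays. Both lists were lowest on WT replicate 3, the array with the lowest adipocyte markers. On WT replicate 4, where Ucp1 was high, both stood within 0.1 of WT replicate 1. WT replicate 1 had the next highest brown and beige marker mean, 6.45 against 7.58 on WT replicate 4. The part of brown and beige markers in these means was not tested. The gap between the lists, beta-oxidation minus cycle, was -0.24, -0.15 and -0.24 on ASC-/- arrays and -0.27, -0.34 and -0.31 on Casp1-/- arrays, against -0.19, -0.21, -0.32 and -0.21 on WT arrays.

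**Figure D5:**
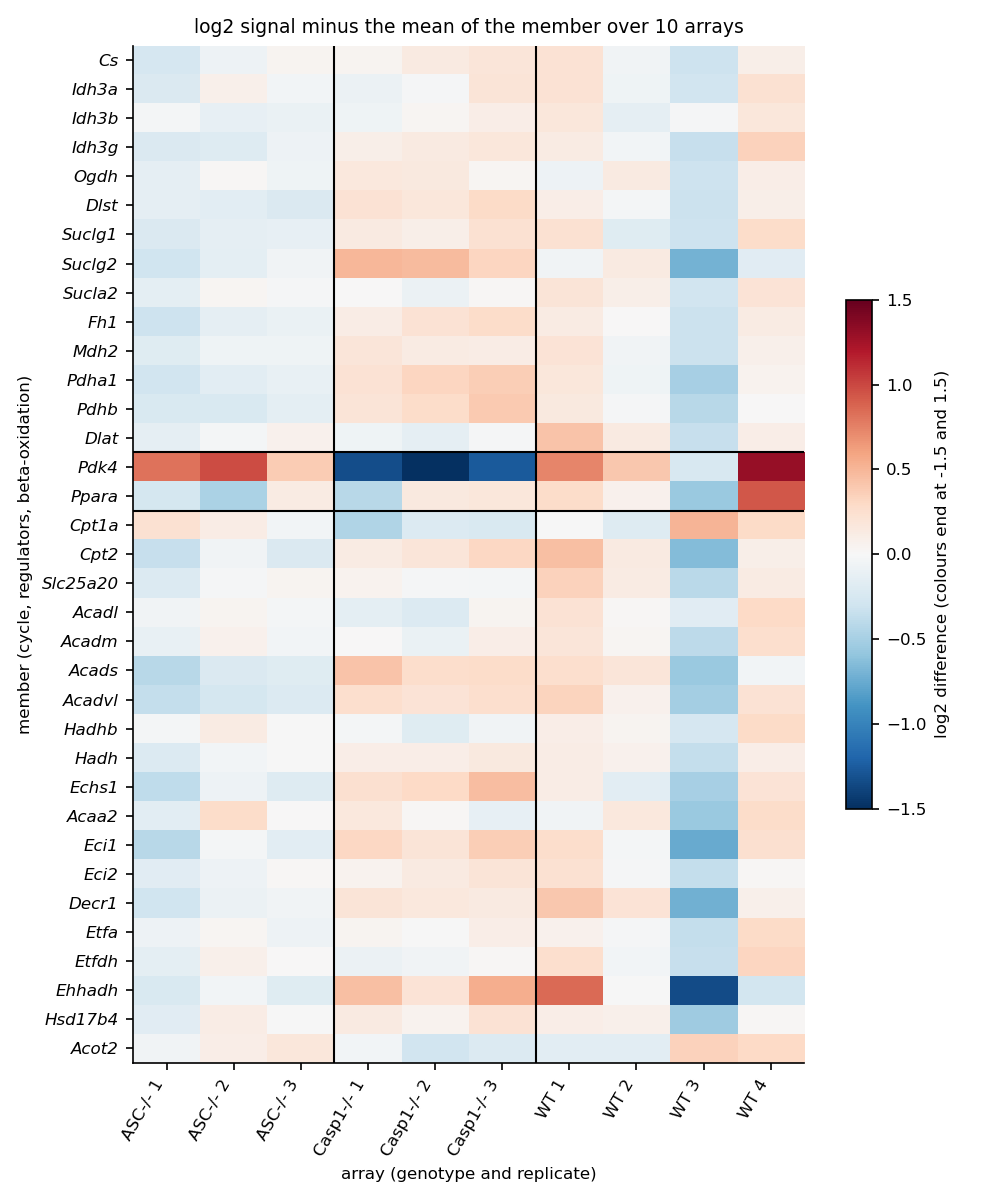
Log2 signal of each of the 35 members on each of the 10 arrays minus the mean of that member, in order of the cycle, the regulators and beta-oxidation; red is higher, blue lower, and colours end at 1.5 log2 units. The column of WT replicate 3 is blue for most members, and Pdk4 is dark blue in the 3 Casp1-/- columns alone.

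For 20 members more than 1 probe set could be read. Their 27 further probe sets had the same sign as the chosen ones 24 times for ASC-/- against WT, 18 times for Casp1-/- against WT and 20 times for ASC-/- against Casp1-/-. Of these, 6 averaged below the highest mean of the control probe sets. Pdhb in ASC-/- against Casp1-/- was the single case in which a further probe set passed.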

How the data were processed

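RNA of 10 arrays (3 ASC-/-, 3 Casp1-/-, 4 WT, grouped by the sample titles) was used. The deposited values are log2 signals. The authors made these log2 values by RMA (version not stated), per the submitters' processing notes. RMA forces 1 distribution on all arrays, so a change in total RNA per cell leaves no trace, and it compresses changes near background. The number of arrays limits the precision.

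Of 45141 probe sets, 28898 carried 1 gene symbol in the platform annotation, 551 several and 15588 none, beside 104 controls. The brightest probe set over all 10 arrays stood for a gene, which gave 17097 genes with no filter on dim ones. A linear model with a mean for each genotype was fitted to all arrays by limma 3.58.1 under R 4.3.3, with 7 residual and 2.43 prior degrees of freedom, and Benjamini-Hochberg adjustment over all genes of a comparison; under 0.05 counts as passed. The script was tested on simulated data. The 4 WT arrays serve both null genotypes.

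Members, lists, motifs and alternatives were chosen with earlier results of these data known. Genes named in full are members past the threshold, else the 6 with the smallest p, with Cs, Pdk4, Ppara and Cpt1a in every comparison, and up to 4 genes of the second list per direction. Other genes are named by their differences alone. Alternatives changed normalization, filter, probe set choice, the empirical Bayes step, weights, samples and blocks. Promoter windows came from RefSeq on GRCm38.p6, and 33 of 37 members had one. No build for the probe sets is stated in the labels. Same-numbered arrays of different genotypes had correlations of their deviations from -0.26 to 0.19, so the numbers were not taken as pairs.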

Additional observations from a re-analysis of the deposited data

Results flagged for a closer look

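In 2 of 37 values screened in WT, the 35 members and the means of both lists, 1 array stood far from the other 3. Hadh, the short-chain hydroxyacyl-CoA dehydrogenase, had 12.63 on WT replicate 3, and the nearest WT array had 13.05, so that the gap took up 0.880 of the range. Hsd17b4, the peroxisomal multifunctional enzyme, had 10.49 on WT replicate 3 and 11.05 on the nearest, with 0.867 of the range. Both pass Dixon's limit for 4 samples, which chance passes in about 1 in 20 groups. The same array had the lowest white adipocyte and the highest macrophage marker means of all 10 arrays, and their part in these values was not tested.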

How the results depend on the processing

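With each array left out in turn, members past the threshold numbered 0 to 4 for Casp1-/- against WT (cycle and pyruvate dehydrogenase 0 to 3, beta-oxidation 0 to 1, second list 0 to 19). That is 0% to 11.4% of members, against 0.374% to 17.7% of all genes. For ASC-/- against Casp1-/- the members numbered 0 to 10 (0 to 5, 0 to 4 and 0 to 23). These are 0% to 28.6% of members, against 0.275% to 15.3% of all genes. For ASC-/- against WT the members past the threshold were 0 under all 22 alternatives.

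For Casp1-/- against WT, the members numbered 2 without the dimmest genes (1 of the cycle), 3 with array weights (1 of the cycle, 1 of beta-oxidation) and 0 with the replicate block or the spike-in set as a block, where 17.5%, 17.5%, 0.0526% and 0.702% of all genes passed. Without the 4 arrays with high epididymis markers, an alternative chosen after seeing the data, they numbered 5 (1 and 3), against 20.3% of all genes. The second list gave 11 without the dimmest genes, 20 with array weights, 0 with the replicate block and 22 without the epididymis-high arrays. With the 2 genotypes compared alone it gave 3 (4.11%), against 2.74% of all genes.

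For ASC-/- against Casp1-/-, the members numbered 2 with quantile normalization, the mean over probe sets or the trended fit (1 of the cycle each), 3 without the dimmest genes (2 of the cycle), 9 with array weights (5 and 3) and 15 with these genotypes alone (7 and 7), against 7.64%, 6.63%, 7.3%, 16.2%, 20.1% and 19% of all genes. They numbered 0 with the replicate block, the spike-in block, the actin 3' minus 5' covariate or without the epididymis-high arrays (against 0.111%, 0.368%, 1.35% and 3.94% of all genes in that order). The second list had 24 with weights, 28 with these genotypes alone and 0 in the last 4. The beta-oxidation median was 0.14 with the spike-in block.

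Signs turned for Acads (0.10) and Cs (0.095) in ASC-/- against WT without the epididymis-high arrays, where the list medians were 0.10 for beta-oxidation and 0.051 for the cycle; for Cs with the spike-in block (-0.094 in Casp1-/- against WT, 0.090 in ASC-/- against Casp1-/-); for Pdk4 in ASC-/- against WT with array weights (-0.070); and for Ppara in Casp1-/- against WT with the mean over probe sets (0.095) or the replicate block (0.037). With 1 array left out, Cpt1a in ASC-/- against WT ran from -0.17 to 0.070, Pdk4 there from -0.088 to 0.43, and Ppara in Casp1-/- against WT from -0.46 to 0.037. The cause was not tested in any of these. Without the epididymis-high arrays, only WT replicates 3 and 4 stood for WT.

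The replicate numbers pair no arrays by the labels, and 2 of 10 arrays correlate best with their own number. With the replicate block Pdk4 was -1.76 in Casp1-/- against WT (adjusted p = 0.0862) and 2.18 in ASC-/- against Casp1-/- (adjusted p = 0.055).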
